A study of Mus musculus with 47 samples.

Results

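The genes described here are those of the tumour necrosis factor (TNF) superfamily, its receptors and the Traf adaptors, in mouse dendritic cells (DCs) and their progenitors. They were taken by symbol: every gene starting with Tnfrsf or Tnfsf, Traf1 to Traf7, and Tnf, Lta, Ltb, Ltbr, Fas and Fasl, with Cd40 left out. This gave 45 of the 21000 genes in the files, 16 ligands, 22 receptors and 7 adaptors. The rule uses symbols alone.

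The samples are 47 RNA sequencing libraries from 17 groups of cells. A monocyte-dendritic cell progenitor (MDP) gives rise to the common dendritic cell progenitor (CDP), and this to precursors committed to the conventional subsets cDC1 (pre-cDC1) and cDC2 (pre-cDC2). Primary wild-type cells came straight from mouse bone marrow, as MDP (3 libraries), CDP (1) and pre-cDC1 (3), or from spleen, as pre-cDC1 (3) and cDC1 (1). All other cells came from bone marrow cultures with the cytokine Flt3L: wild-type MDP, CDP, pre-cDC1, pre-cDC2, cDC1 and cDC2, with 3 libraries each. Cultured pre-cDC1 were also made with an enhancer of Irf8 deleted, a transcription factor gene required for cDC1; the enhancers lie 32 kb and 56 kb from the gene. The genotypes are labelled enhancer-deficient for the 32 kb site (d32), and heterozygous-deficient for the 32 kb site (d32het) and the 56 kb site (d56het), with 3 libraries each. The last 3 groups, of 3 libraries each, are cultured cDC1: d32 or d56 cells rescued with IRF8, and wild-type cells labelled MSCV, the name of a retroviral vector. Ages, sexes and sorting gates are not given in the sources used here. Replicates are numbered 1 to 3 in the labels, while the design text calls them duplicates, and nothing says that each came from its own mouse. The p-values therefore rest on a spread between libraries that may be partly technical. All libraries numbered 3, and the primary CDP library, carry sample numbers from a separate and higher block than the rest. Whether that block is a batch is not stated. The splenic cDC1 library is in it, as is the only cultured cDC1 library used in the main tests.

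TNF superfamily ligands are mostly trimeric membrane proteins that can be shed, and they cluster receptors on the responding cell. Receptors with a death domain, such as TNFR1 and Fas, can start caspase-driven cell death, while most others recruit TRAF adaptors that lead to the classical or the alternative NF-kB pathway and to MAP kinases. In the immune system the family carries survival signals for B cells (BAFF and APRIL), costimulation of T cells (4-1BB, OX40, GITR, CD27) and the building of lymphoid tissue (lymphotoxin). Splenic conventional DCs are known to depend on lymphotoxin β receptor signals for their numbers, and mature DCs are a source of several of the costimulatory ligands.

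Library totals ran from 14660655 to 43084068 counts. Levels are given in CPM, counts relative to the library total, with TMM scaling over all libraries, and since they are not per length they are compared within a gene and never between genes. A summed level of 8 cDC1 marker genes was 54.1 to 60.5 CPM in primary MDP, where Cadm1, Itgae and Tlr3 were at 0, 1740.5 to 2081 in cultured wild-type pre-cDC1, and 5855 in the splenic cDC1 library. Among replicates 1 and 2 of the cultured cDC1 and pre-cDC2, the file name of a library titled cDC1 says pre-cDC2 and the reverse. The libraries titled cDC1 held 1173 and 1163 CPM of the cDC1 markers and those titled pre-cDC2 3716 and 3711, against 3347 in replicate 3 of cDC1 and 2096 in replicate 3 of pre-cDC2. The main tests do not use these 4 libraries, so that cultured cDC1 and pre-cDC2 stand on 1 library each. Splenic pre-cDC1 replicate 2 held 210.1 CPM of 5 B cell markers against 50.3 and 40.6 in the other replicates.

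Of the 45 members, 22 reached a mean of 10 CPM in at least 1 group, and 7 stayed under 1 CPM in every group: Tnfsf4 (OX40 ligand), Tnfsf11 (RANK ligand), Tnfsf18 (GITR ligand), Tnfrsf8 (CD30), Tnfrsf11b (osteoprotegerin), Tnfrsf17 (BCMA) and Tnfrsf19. A filter on low counts passed 43 members in at least 1 of the 14 comparisons tested and 32 in all of them. Tnfrsf11b and Tnfrsf17 passed in none. In all, 13 members were called at an adjusted p under 0.05 in at least 1 comparison (edgeR's quasi-likelihood test, Benjamini-Hochberg adjustment over all genes tested), 5 ligands, 6 receptors and 2 adaptors. The genes that most of the calls fall on lie, in RefSeq coordinates on GRCm38.p6, at chr17:35194507-35196305 (Ltb), chr17:57105287-57107758 (Tnfsf9), chr11:61126283-61153170 (Tnfrsf13b), chr15:82221742-82224380 (Tnfrsf13c), chr4:156026322-156028894 (Tnfrsf18), chr4:150920155-150946104 (Tnfrsf9), chr2:34941750-34961812 (Traf1) and chr2:25517982-25546940 (Traf2). Counts cover whole genes, so no exon or transcript is singled out. Among the 12 members that reached 10 CPM and were never called were both TNF receptors, Tnfrsf1a and Tnfrsf1b, the lymphotoxin β receptor gene Ltbr and the adaptors Traf3, Traf5, Traf6 and Traf7. Group means of Ltbr ran from 14.4 CPM in d56 IRF8-rescued cDC1 to 27.4 CPM in splenic pre-cDC1, and those of Tnfrsf1a from 16.9 CPM in the splenic cDC1 library to 46.1 CPM in marrow pre-cDC1. Group means of Traf6, the adaptor shared with Toll-like and IL-1 receptors, ran from 59.0 to 95.8 CPM.

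**Figure D1:**
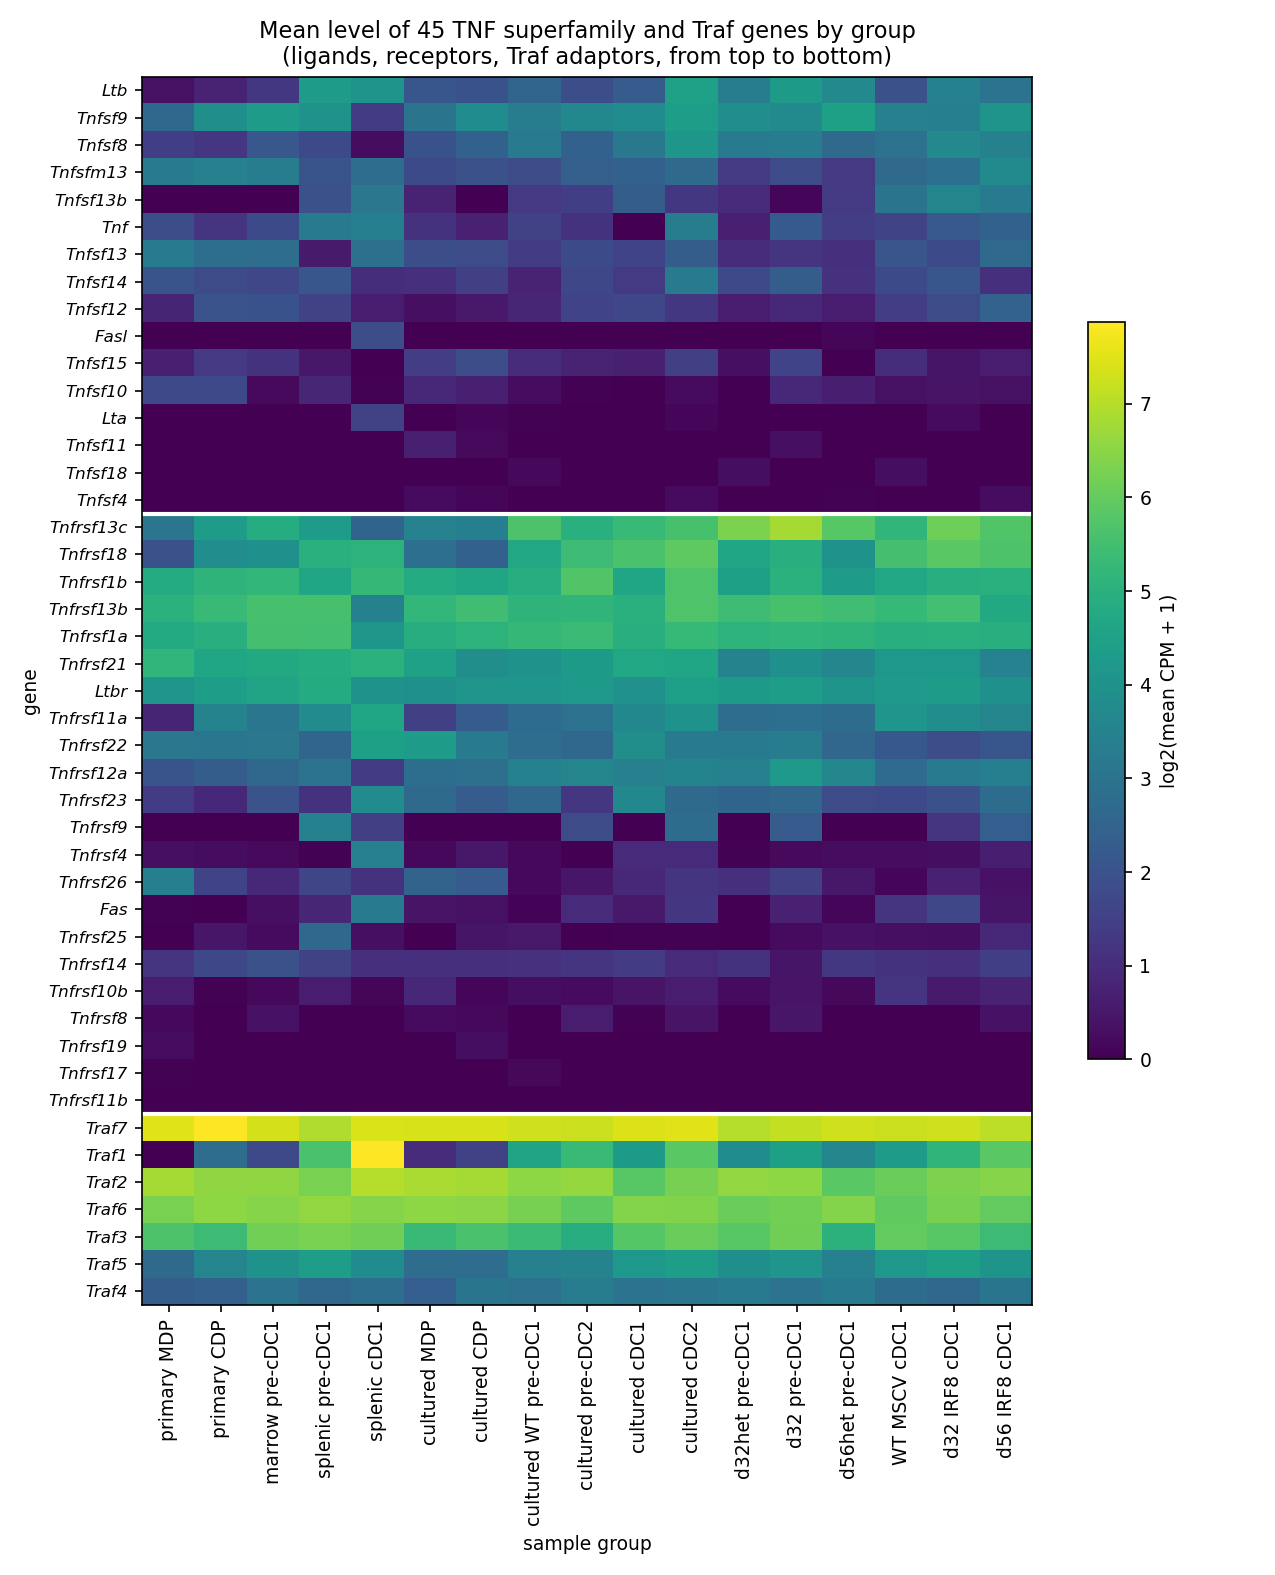
Heat map of log2(mean CPM + 1) for the 45 members (rows; ligands, receptors and adaptors from top to bottom) in the 17 groups (columns). Rows are to be read across, since CPM is not per length. Traf1 goes from 0 CPM in primary MDP to 232 CPM in the splenic cDC1 library, while Traf2, Traf6 and Traf7 stay at similar colours in every group.

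In culture the step from CDP to pre-cDC1 had the highest number of calls among the members: 7 of 41 tested, 4 higher and 3 lower. At this step 23.3% of all genes were called (12.1% up and 11.2% down), so the members' share was not above the background. Without any 1 library other than pre-cDC1 replicate 3 the count was 5. The receptors Tnfrsf13c and Tnfrsf18 and the adaptor Traf1 rose together. Tnfrsf13c encodes the BAFF receptor, which keeps mature B cells alive, Tnfrsf18 encodes GITR, a costimulatory receptor best known on regulatory T cells, and TRAF1 is an adaptor that joins TRAF2 at receptors such as 4-1BB. For the first 2, the 250 bases upstream of the RefSeq start (GRCm38.p6) are shown because both receptors rose at this step, with each match to the E-box motif CANNTG in capitals (Tnfrsf13c at chr15:82224381-82224630, minus strand; Tnfrsf18 at chr4:156026072-156026321, plus strand).
Tnfrsf13c: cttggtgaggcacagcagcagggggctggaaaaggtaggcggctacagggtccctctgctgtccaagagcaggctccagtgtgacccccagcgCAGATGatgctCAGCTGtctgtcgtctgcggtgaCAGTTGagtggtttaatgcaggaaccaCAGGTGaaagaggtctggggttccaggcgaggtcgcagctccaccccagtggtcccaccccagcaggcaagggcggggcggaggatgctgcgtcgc
Tnfrsf18: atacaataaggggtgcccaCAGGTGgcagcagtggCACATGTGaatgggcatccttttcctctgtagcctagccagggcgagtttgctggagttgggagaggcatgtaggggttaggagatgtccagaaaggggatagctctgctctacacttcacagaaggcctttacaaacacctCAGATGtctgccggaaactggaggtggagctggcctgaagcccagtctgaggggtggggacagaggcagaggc
Each window held 4 matches, the same on both strands, and 2 of those of Tnfrsf18 overlap each other. Of 32851 promoter windows of this length 66.2% held at least 1 match, so most promoters hold it. The share that held 4 was not counted. The window of Traf1, with 2 matches, overlaps the annotated gene and is not shown. The table held promoters for 38 of the 45 members.

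Tnfrsf13c stood at 8.47, 12.5 and 9.68 CPM in the 3 cultured MDP libraries, 6.24, 12.6 and 9.61 in CDP and 54.5, 38.9 and 57.6 in pre-cDC1. Every pre-cDC1 library lay above every CDP and MDP library. The log2 fold change from CDP to pre-cDC1 was 2.41 (SE 0.26, adjusted p = 2.68e-05), a 5.32-fold difference of means. Tnfrsf18 went from 3.84, 6.42 and 3.04 CPM in CDP to 25.2, 26.0 and 24.8 in pre-cDC1, with no overlap and little spread among the pre-cDC1 libraries. The difference on the log2 scale was 2.52 (SE 0.27, adjusted p = 2.56e-05). Traf1 stood at 0, 0.174 and 2.78 CPM in cultured MDP, 2.17, 1.81 and 1.62 in CDP and 24.2, 30.8 and 14.2 in pre-cDC1, where the libraries differed among themselves but all exceeded the progenitors. On the log2 scale it differed by 3.63 (SE 0.82, adjusted p = 0.00597). All 3 calls held whichever library was left out and under every other setting tried.

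Among the ligands, Tnfsf9, which encodes 4-1BB ligand, a costimulator of CD8 T cells, rose from MDP to CDP and then fell. It stood at 6.95, 7.46 and 6.83 CPM in cultured MDP, 11.2, 12.8 and 15.6 in CDP and 10.01, 9.01 and 7.76 in pre-cDC1, and neither pair of neighbouring stages overlapped. The log2 fold change was 0.90 (SE 0.19, adjusted p = 0.0403) from MDP to CDP, the only call among 41 members there, where 1.04% of all genes were called (0.609% up and 0.429% down), and without MDP replicate 2 or CDP replicate 2 or 3 there was none. From CDP to pre-cDC1 it was -0.56 (SE 0.19, adjusted p = 0.0446). Each call held without CDP replicate 1 and was lost when any other library was left out, with log2 fold changes of 0.75 to 1.00 and -0.65 to -0.38 and adjusted p up to 0.161 and 0.217. Tnfsf13b, the gene of BAFF, had 0 counts in every CDP library and 1.09, 3.37 and 0.0356 CPM in pre-cDC1. It was at least 44.7-fold higher in pre-cDC1, from a floor of 3 counts over the CDP group, with an adjusted p of 0.0479. Pre-cDC1 replicate 3 held a single count, and the call held only when that library was left out.

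The receptors Tnfrsf26 and Tnfrsf13b fell at this step. Tnfrsf26, a relative of the mouse decoy receptors for TRAIL, went from 3.94, 3.93 and 3.47 CPM in CDP to 0.211, 0 and 0.142 in pre-cDC1, so that it was nearly lost. This was a log2 fold change of -4.94 (SE 1.22, adjusted p = 0.0102). Tnfrsf13b encodes TACI, the receptor for BAFF and APRIL, and went from 44.4, 42.2 and 41.8 CPM to 35.0, 34.3 and 32.4, a small difference without overlap. Its log2 fold change was -0.34 (SE 0.08, adjusted p = 0.00674), and it lost its call without CDP replicate 1 (adjusted p = 0.0530). Tnfrsf22, Tnfrsf23 and Tnfrsf26 lie side by side on chromosome 7 and are near copies of each other, so reads may have been divided between them. Markers of other cells moved with this step: summed B cell markers were 35.4 to 50.8 CPM in CDP and 4.97 to 12.3 CPM in pre-cDC1, with Pax5 and Ebf1 at 0 in both. Plasmacytoid DC markers were 1046 to 1342 CPM in CDP and 301 to 407 CPM in pre-cDC1, and neutrophil markers 45.8 to 55.9 and 0 to 13.6 CPM. The part of these cells in the calls was not tested.

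From pre-cDC1 to cultured cDC1, 0 of 41 members were called by edgeR, 4 had an unadjusted p under 0.05 and DESeq2 called 0, where 2.26% of all genes were called (1.01% up and 1.26% down). Tnfrsf18 stood at 47.7 CPM in the cDC1 library against 25.3 ± 0.601 (SD, n = 3) in pre-cDC1, with an adjusted p of 0.188. With the libraries of conflicting labels kept under their titles the count was again 0, where 0.185% of all genes were called. The libraries titled cDC1 held 1167 and 1691 CPM of Sirpa, a cDC2 marker, against 38.9 and 88.2 in those titled pre-cDC2. That fit may thus mix cell types, and its count adds little to the main test. Cultured cDC2 were higher than the 1 cDC1 library of the main tests in 2 of 41 members, where 3.72% of all genes were called (2.13% up and 1.59% down). Ltb, the gene of lymphotoxin β, which forms the membrane ligand of the lymphotoxin β receptor, stood at 21.2, 22.6 and 21.95 CPM in cDC2 and 3.87 in cDC1. All cDC2 libraries lay well above it, with a log2 fold change of 2.50 (SE 0.54, adjusted p = 0.0213), lost without cDC2 replicate 2 (adjusted p = 0.0509) and in 1 fit of all libraries (adjusted p = 0.332). The 4 libraries of conflicting labels held between 2.79 and 3.85 CPM of Ltb, so whichever cell type they hold, all were below cDC2. Tnfrsf13b stood at 48.2, 53.3 and 51.5 CPM in cDC2 and 31.1 in cDC1, a log2 fold change of 0.71 (SE 0.11, adjusted p = 0.00389), lost in 1 fit of all libraries (adjusted p = 0.0875). With those libraries kept under their titles the log2 fold changes were 2.64 for Ltb and 0.65 for Tnfrsf13b, and both remained called.

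Tnfrsf9, the gene of 4-1BB and so the receptor for the Tnfsf9 product, stood at 3.90, 7.52 and 6.26 CPM in cultured cDC2. It had 0 counts in every MDP, CDP and WT pre-cDC1 library and in the cultured cDC1 library. The adjusted p between cDC2 and cDC1 was 0.0965. Summed mast cell and basophil markers were 179 to 394 CPM in cDC2 and 17.8 in the cDC1 library, and their part in these differences was not tested. As in any bulk sample, more cells of a type and more RNA per cell cannot be told apart.

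**Figure D2:**
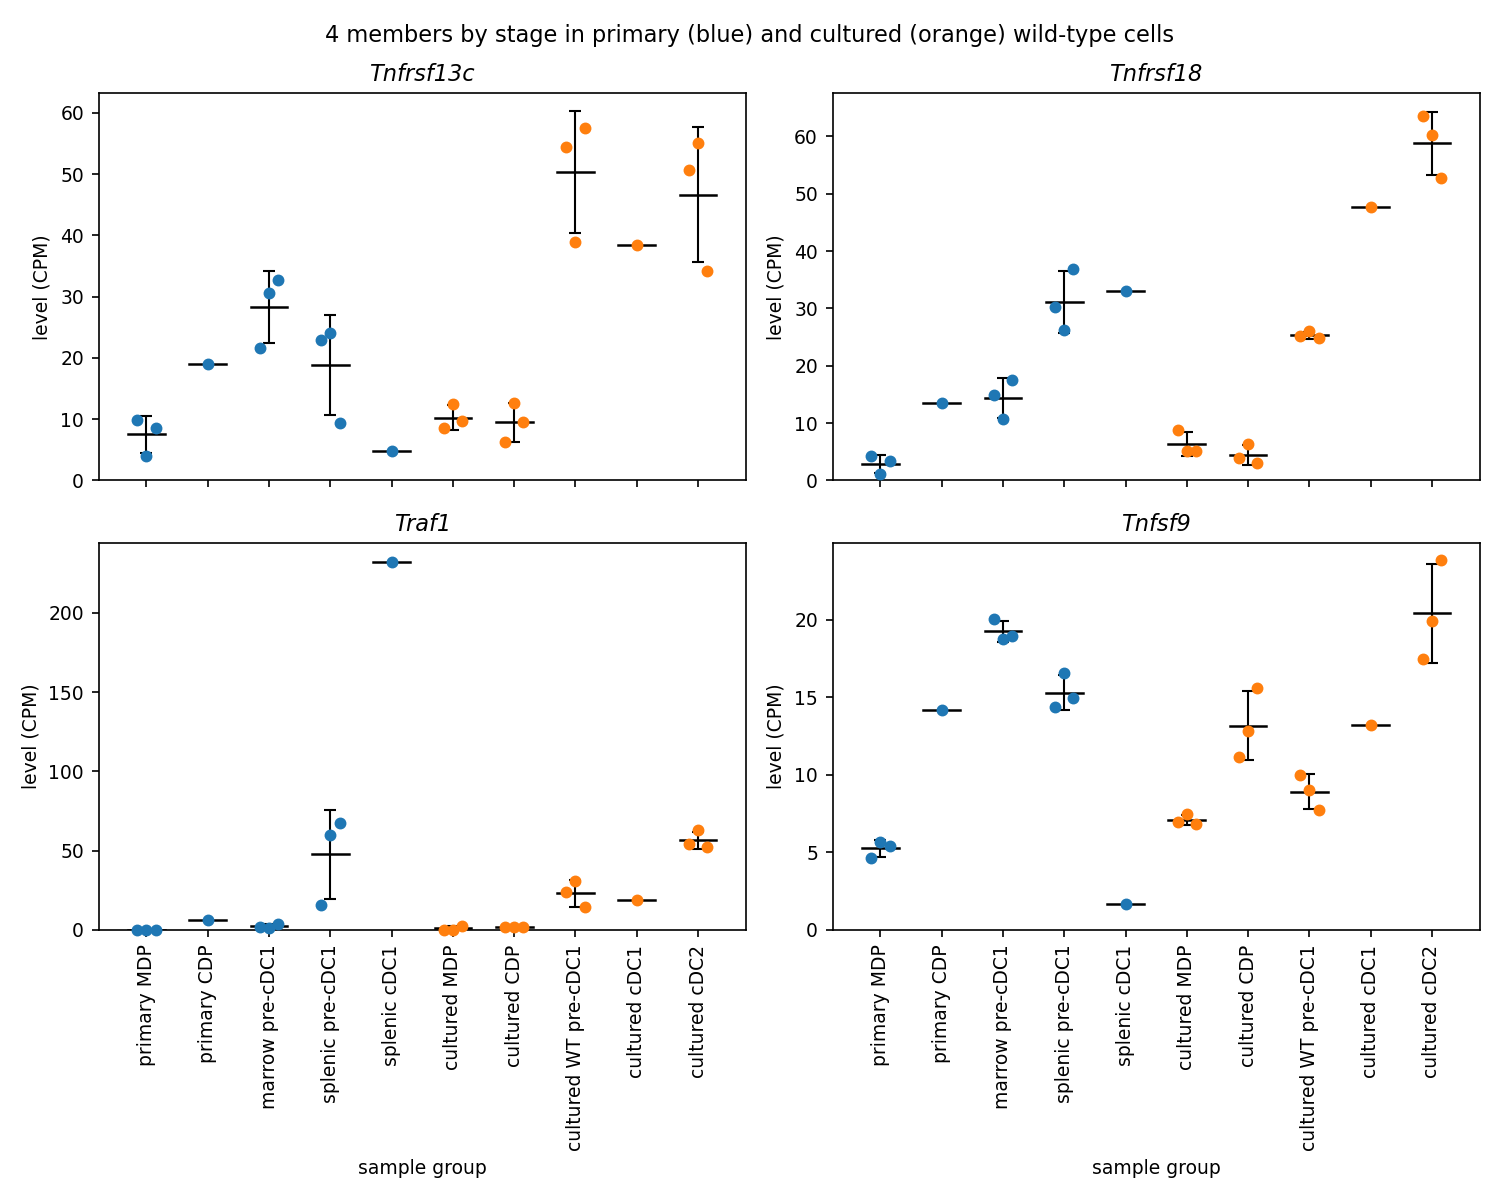
CPM of Tnfrsf13c, Tnfrsf18, Traf1 and Tnfsf9 in wild-type primary cells (blue) and cultured cells (orange); each point is 1 library, the line is the group mean and the bars are the SD. In both sources the 3 pre-cDC1 libraries from marrow or culture lie above MDP for the first 3 genes, and Tnfsf9 is at 18.8 to 20.0 CPM in marrow pre-cDC1 but 7.76 to 10.01 CPM in cultured pre-cDC1.

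In primary cells, 4 of 40 members were called between marrow pre-cDC1 and MDP, all higher, where 8.24% of all genes were called (5.61% up and 2.64% down). Tnfsf9 stood at 4.67, 5.70 and 5.39 CPM in MDP and 20.0, 18.8 and 19.0 in marrow pre-cDC1. The groups were far apart and tight, with a log2 fold change of 1.85 (SE 0.27, adjusted p = 0.00605). Traf1 had 0 counts in all 3 MDP libraries and 1.90, 1.5 and 3.63 CPM in marrow pre-cDC1, at least 84.9-fold higher (adjusted p = 0.00791), from a floor of 3 counts over the MDP group. Both calls held whichever library was left out. Tnfrsf18 went from 4.20, 1.09 and 3.29 CPM to 14.9, 10.7 and 17.5, with a log2 fold change of 2.31 (SE 0.49, adjusted p = 0.0257). Tnfrsf13c went from 9.84, 4.05 and 8.58 CPM to 21.6, 30.6 and 32.6, with a log2 fold change of 1.90 (SE 0.47, adjusted p = 0.0442). Neither of these receptors overlapped between the groups. The Tnfrsf13c call was lost whichever library was left out, at log2 fold changes of 1.62 to 2.14 and adjusted p up to 0.142. That of Tnfrsf18 was lost without any 1 marrow pre-cDC1 library or without MDP replicate 3, at 1.94 to 2.69 and adjusted p up to 0.0858. The count of calls fell to 3 without MDP replicate 1 or 2 and to 2 without any other library.

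Splenic pre-cDC1 differed from marrow pre-cDC1 in 1 of 40 members, where 1.88% of all genes were called (0.6% up and 1.28% down). Traf1 stood at 15.7, 59.9 and 67.2 CPM in spleen against 1.90, 1.5 and 3.63 in marrow, a 20.3-fold difference of means without overlap. Its log2 fold change was 4.32 (SE 0.70, adjusted p = 0.0429), and the call was lost without splenic replicate 2 or any 1 of the marrow libraries (log2 fold change 3.96 to 4.80, adjusted p up to 0.220). Without splenic replicate 3, 5 members were called, where 8.80% of all genes were called. Ltb stood at 20.0, 20.7 and 16.3 CPM in spleen and 0.415, 1.96 and 1.94 in marrow, with no overlap, but its adjusted p was 0.210 in edgeR and 0.00357 in DESeq2. In the list of genes that carry TNF receptor signals, 1 of 30 was called, against 1.88% of all genes, namely Tnfaip3, whose product A20 restrains NF-kB, with 11.3, 14.0 and 14.9 CPM in marrow and 56.6, 84.7 and 78.1 in spleen. Its log2 fold change was 2.43 (SE 0.41, adjusted p = 0.0281).

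Single splenic pre-cDC1 libraries carried much of the spread of other members. In the order of replicates 1 to 3, Tnfrsf9 stood at 0, 30.0 and 0 CPM. Tnf, the founding ligand, stood at 0, 23.0 and 1.64 CPM, and Tnfrsf11a, the gene of RANK, at 25.8, 0 and 13.0. Replicate 2 was thus high for Tnfrsf9 and Tnf and alone at 0 for Tnfrsf11a. It is the library with 210.1 CPM of B cell markers, whose part was not tested. Replicate 1 had 3 counts of Tnfrsf1b, which encodes TNFR2, against 599 and 1007 in the others. Tnfrsf22 had 0 counts in replicates 1 and 2 and 374 in replicate 3.

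The single splenic cDC1 library held the highest level of several members. Traf1 stood at 232 CPM there, above the 15.7, 59.9 and 67.2 of splenic pre-cDC1. Fas, the death receptor gene, stood at 8.58 CPM, and no other group mean exceeded 2.16 ± 0.784 (SD, n = 3, d32 IRF8-rescued cDC1). Tnfrsf4, which encodes OX40, stood at 9.69 CPM, where every other group mean was below 1 CPM. Conversely, Tnfsf9 was at 1.66 CPM and Tnfrsf13b at 10.1, the lowest of the 17 group means for each. This library has no replicate and was not tested, and its summed B cell markers were 95.9 CPM, mainly Ebf1, Cd79b and Ms4a1. Markers of T cells, NK cells and innate lymphoid cells summed to 12.6 CPM, with 5 of 7 detected and Ncr1 and Klrb1c at 0. The part of these cells in the levels was not tested.

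Cells from culture and from marrow could be set against each other at 2 stages. Between MDP, 1 of 33 members was called, where 8.28% of all genes were called (5.38% up and 2.9% down). Between pre-cDC1, 4 of 33 were called, where 21.9% of all genes were called (10.7% up and 11.2% down). All of these calls were lower in culture. Of these, Tnfsf9 stood at 10.01, 9.01 and 7.76 CPM in cultured and 20.0, 18.8 and 19.0 in marrow pre-cDC1, a log2 fold change of -1.11 (SE 0.17, adjusted p = 0.00127). MDP from the 2 sources lay closer, at 6.95, 7.46 and 6.83 and 4.67, 5.70 and 5.39 CPM. The step from MDP to pre-cDC1 therefore differed by -1.48 on the log2 scale between culture and marrow (SE 0.24, adjusted p = 0.00451, interaction term), the only 1 of 33 members called for this difference, where 11.4% of all genes were called (4.78% up and 6.64% down). These calls of Tnfsf9 held whichever library was left out. A second member was called for the difference without primary MDP replicate 1 or marrow pre-cDC1 replicate 3, where 8.90% and 15.3% of all genes were called. Between MDP a second was called without replicate 1 of either source, where 5.87% (primary) and 5.09% (cultured) of all genes were called.

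The genes of TWEAK (Tnfsf12) and APRIL (Tnfsf13), ligands of Fn14 and TACI, lie next to each other on chromosome 11, and Tnfsfm13 spans both, from 69682577 to 69696098. Reads could have been divided among the 3 in counting, so their sum is given first. It was 17.9 ± 4.12 CPM in primary MDP, 17.9 ± 5.56 in marrow pre-cDC1, 5.31 ± 1.58 in cultured MDP and 4.97 ± 1.53 in cultured pre-cDC1 (SD, n = 3), and neither pair of sources overlapped. A low sum was not particular to culture: primary splenic pre-cDC1 held 5.51 ± 0.614 CPM, while cultured rescued d56 cDC1 held 22.2 ± 3.52 CPM (SD, n = 3). Tnfsfm13 itself was lower in culture than in marrow by 1.87 on the log2 scale in MDP (SE 0.36, adjusted p = 0.00928) and by 1.80 in pre-cDC1 (SE 0.36, adjusted p = 0.00499). Both calls were lost in 1 fit of all libraries, with adjusted p of 0.195 and 0.128. Tnfsf13 had a log2 fold change of -1.90 (SE 0.51, adjusted p = 0.0215) in pre-cDC1, lost without marrow replicate 1 or cultured replicate 2 or 3 (adjusted p up to 0.0942) and in 1 fit of all libraries (adjusted p = 0.359). Tnfrsf13b, the receptor of its product, stood at 35.0, 34.3 and 32.4 CPM in culture and 52.9, 48.7 and 37.8 in marrow, a log2 fold change of -0.45 (SE 0.14, adjusted p = 0.0442), which held only without marrow replicate 3. Without marrow replicate 3 there were 7 calls among the members at this stage, where 21.7% of all genes were called. Without marrow replicate 1, cultured replicate 2 or cultured replicate 3 there were 2, where 15.8%, 15.2% and 16.7% of all genes were called. Summed monocyte and macrophage markers were 507 to 888 CPM in marrow pre-cDC1 and 175 to 194 in cultured pre-cDC1, and their part was not tested.

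Loss of an Irf8 enhancer was examined in cultured pre-cDC1. Irf8 itself stood at 14.4% of its wild-type mean in d32, 35.9% in d32het and 28.8% in d56het. All 3 comparisons share the same wild-type libraries. In d32, 4 of 34 members were called, all higher, where 4.52% of all genes were called (2.75% up and 1.77% down). The d32 count was 1 without WT replicate 1 or 2 or d32 replicate 2 and 2 without any other library. In d56het, 3 of 34 were higher and 1 lower, where 12.4% of all genes were called (6.12% up and 6.27% down). That count was 3 without d56het replicate 2, 2 without d56het replicate 1 or 3 or WT replicate 3, and 1 without WT replicate 1 or 2. In d32het, edgeR called 0 of 34, where 3.71% of all genes were called (2.31% up and 1.4% down). Of the 34, 6 had an unadjusted p under 0.05, as did 2063 of the 11604 genes tested. DESeq2 called 3, Tnfrsf13b, Tnfrsf13c and Tnfsf9, all higher, where it called 11.1% of all genes. Without d32het replicate 3 edgeR called 1, where 1.82% of all genes were called. The median log2 fold change of the 34 members was 0.20 in d32, -0.05 in d32het and -0.09 in d56het, against 0, -0.01 and 0.01 over all genes tested.

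The lymphotoxin β gene Ltb, on chromosome 17 beside Tnf and Lta, was the ligand called in both. The 250 bases before its RefSeq start (chr17:35194257-35194506, GRCm38.p6, plus strand) hold 1 match to the NF-kB motif, in capitals, which 7.25% of 32851 such windows hold, and are shown because lymphotoxin genes are textbook NF-kB targets.
Ltb: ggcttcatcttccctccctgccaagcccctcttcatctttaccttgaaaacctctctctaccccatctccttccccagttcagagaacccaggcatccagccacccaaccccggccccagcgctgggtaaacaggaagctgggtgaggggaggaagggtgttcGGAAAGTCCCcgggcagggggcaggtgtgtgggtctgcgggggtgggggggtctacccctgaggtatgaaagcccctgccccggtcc
Levels in WT pre-cDC1 were 4.74, 4.94 and 4.99 CPM, in d32 17.1, 19.8 and 19.0, in d32het 13.1, 9.62 and 4.46 and in d56het 9.52, 15.8 and 10.6. All d32 and d56het libraries exceeded all WT libraries, while d32het replicate 3 did not. The log2 fold change for d32 cells was 1.92 (SE 0.35, adjusted p = 0.0127). It was 1.3 (SE 0.35, adjusted p = 0.0351) for d56het cells and 0.88 (SE 0.34, adjusted p = 0.210) for d32het cells. The d32 call was lost without WT replicate 1 or 2 or d32 replicate 2 (adjusted p up to 0.0658), and the d56het call held only without d56het replicate 1 (adjusted p up to 0.111).

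Tnfrsf13c, the BAFF receptor gene, was called in d32 and not in d56het. It stood at 54.5, 38.9 and 57.6 CPM in WT, 108, 129 and 96.7 in d32, 75.3, 77.4 and 83.6 in d32het and 55.5, 42.7 and 67.6 in d56het. All d32 and d32het libraries lay above WT, and d56het overlapped it. For d32 cells the log2 fold change was 1.14 (SE 0.20, adjusted p = 0.0101), and the call held whichever library was left out. It was 0.64 (SE 0.20, adjusted p = 0.112) for d32het cells and 0.15 (SE 0.20, adjusted p = 0.708) for d56het cells. The difference between the d32 and d56het effects was not tested. Tnfrsf13b stood at 35.0, 34.3 and 32.4 CPM in WT, 46.6, 46.4 and 47.7 in d32 and 47.6, 40.6 and 40.9 in d56het, a small shift without overlap. Its log2 fold changes of 0.46 (adjusted p = 0.0285) and 0.35 (adjusted p = 0.0440) lost their calls whichever library was left out in d32 (up to 0.112), and in d56het unless it was d56het replicate 2 (up to 0.137).

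Tnfsf9 was called in d56het. It stood at 10.01, 9.01 and 7.76 CPM in WT, 11.5, 11.98 and 14.2 in d32, 12.4, 14.8 and 13.6 in d32het and 21.9, 20.6 and 21.5 in d56het, and every library of the enhancer-deleted groups lay above WT. For d56het cells the log2 fold change was 1.27 (SE 0.16, adjusted p = 0.000771), and the call held whichever library was left out. It was 0.48 (SE 0.16, adjusted p = 0.136) for d32 cells and 0.60 (SE 0.16, adjusted p = 0.0655) for d32het cells. Its receptor gene Tnfrsf9 had 0 counts in WT and d32het, 1 count in 1 d56het library, and 2.85, 4.54 and 3.97 CPM in d32. It was at least 104-fold higher in d32 (adjusted p = 0.0341), a call lost whichever library was left out (adjusted p up to 0.133). Traf2, the adaptor that brings the cIAP ubiquitin ligases to TNF receptors, was the member that fell. It stood at 93.1, 97.9 and 86.0 CPM in WT and 52.1, 50.1 and 69.8 in d56het, a log2 fold change of -0.68 (SE 0.16, adjusted p = 0.0236), which held only without d56het replicate 3 or WT replicate 3 (adjusted p up to 0.0798). Traf3, which restrains the alternative NF-kB pathway, had 0 counts in d56het replicate 1 and 941 and 1745 in replicates 2 and 3.

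**Figure D3:**
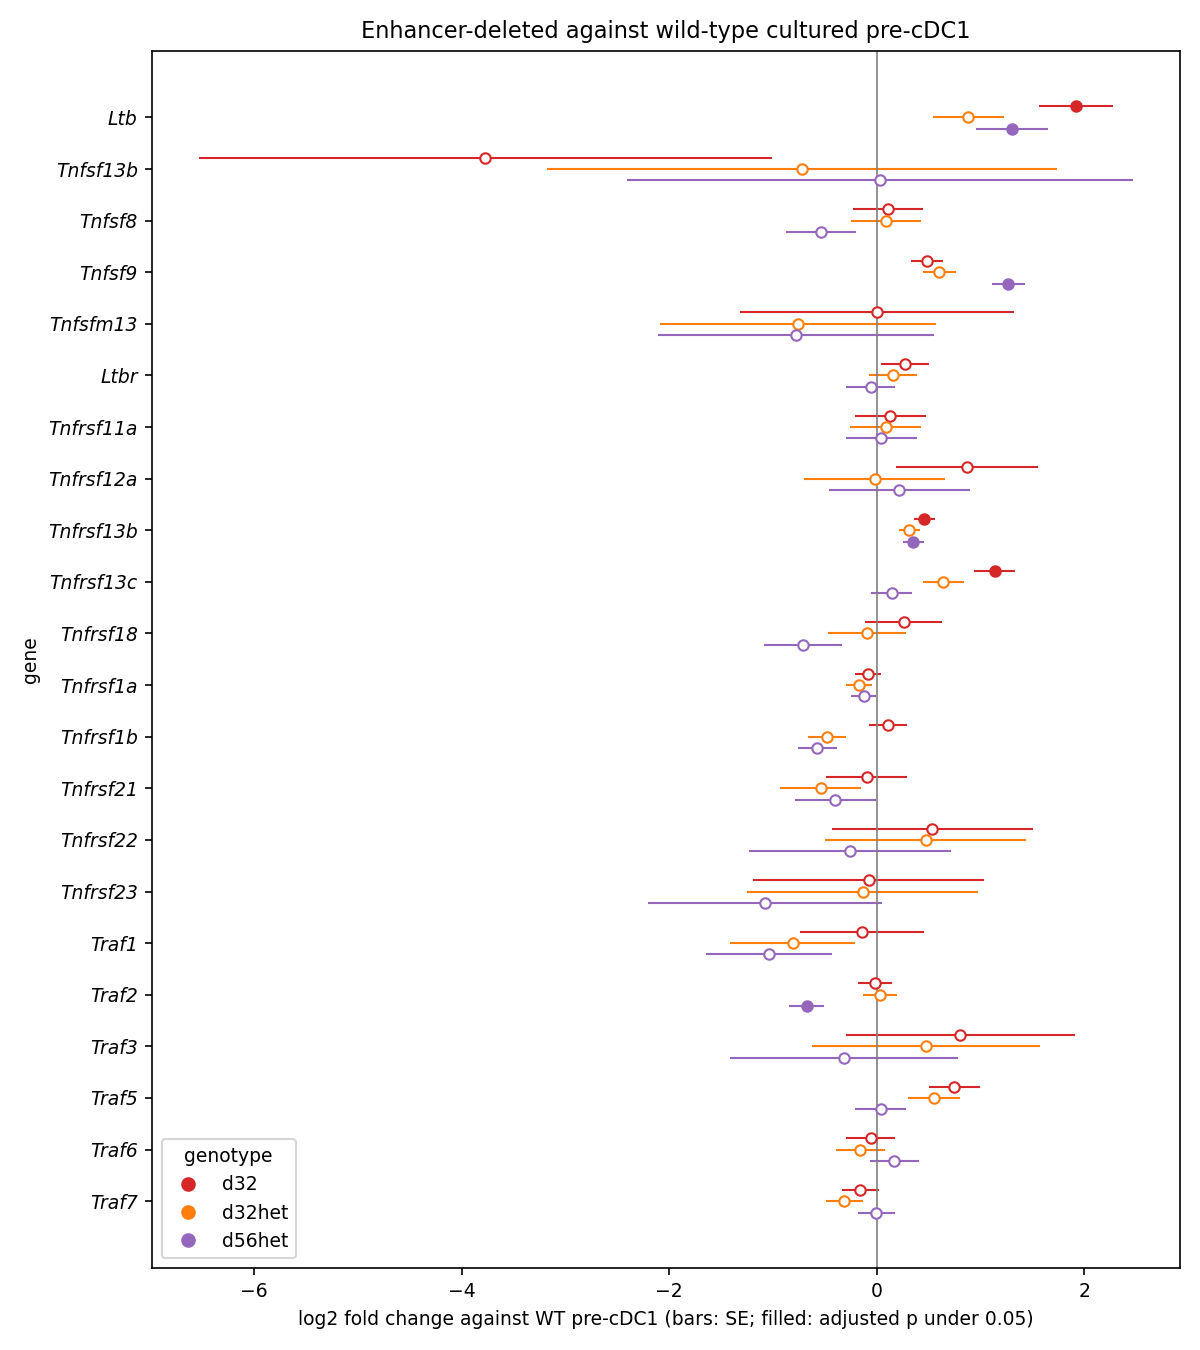
Log2 fold change against wild-type cultured pre-cDC1 for the members that reach 10 CPM in some group, in d32 (red), d32het (orange) and d56het (purple); bars are the SE and filled points have an adjusted p under 0.05. Ltb, Tnfrsf13b and Tnfsf9 lie to the right of 0 in all 3 genotypes, and most adaptors lie near 0. Tnfrsf9, whose highest group mean is 9.997 CPM, is not drawn.

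Marker genes of other cell types moved with these genotypes. Summed cDC1 markers were 1740.5 to 2081 CPM in WT, 290.4 to 344 in d32, 428 to 655 in d32het and 275 to 310.4 in d56het. Summed cDC2 markers went the other way, from 506 to 664 in WT to 2723 to 3551 in d32. They were 2087 to 2174 in d32het and 2713 to 3405 in d56het. Of the members called in these genotypes, Ltb, Tnfrsf13b and Tnfrsf9 have their highest or second highest group mean in cultured cDC2. Tnfrsf13c is highest in d32 pre-cDC1, Tnfsf9 in d56het pre-cDC1 and Traf2 in the splenic cDC1 library. Mean Tnfrsf13c was 46.6 CPM in cultured cDC2, 50.3 in WT pre-cDC1 and 111 in d32. Plasmacytoid DC markers were 301 to 407 CPM in WT and 1884 to 2795 in d56het, and the 7 mast cell and basophil markers 1.41 to 16.7 in WT and 138 to 440.5 in d32. The part of these cells in the results was not tested. Tnfrsf13b and Tnfrsf13c are also B cell genes, and among 5 B cell markers Pax5 and Ebf1 were at 0 in WT, d32, d32het and d56het, while the summed level of 4.97 to 12.3 CPM in WT and 27.9 to 35.5 in d32 was nearly all Cd79b.

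Of 30 genes that carry TNF receptor signals, 1 was called in d32, 1 in d32het and 3 in d56het, all higher. The shares called over all genes were 4.52%, 3.71% and 12.4%, so the list's share was not above the background in any of these genotypes. Casp8, the protease started by death receptors, was called in each, from 137, 115 and 144 CPM in WT to 299, 304 and 322 in d32, 198, 333 and 184 in d32het and 329, 319 and 343 in d56het. Its log2 fold changes were 1.22, 0.85 and 1.34 (adjusted p = 0.00601, 0.0413 and 0.00176). Tnip1, which encodes a partner of A20, had a log2 fold change of 0.99 (SE 0.14, adjusted p = 0.00153) and Tifa, a TRAF6 partner, of 0.50 (SE 0.13, adjusted p = 0.0317) in d56het. Of 8 superfamily genes with other symbols 3 were tested, with 1 called in d32, 0 in d32het by edgeR (2 at an unadjusted p under 0.05) and 2 in d56het. Relt, a TNF receptor relative, went from 35.0, 35.0 and 40.5 CPM in WT to 105, 133 and 133 in d32 and 86.5, 142 and 136 in d56het, with log2 fold changes of 1.74 (SE 0.30, adjusted p = 0.00945) and 1.73 (SE 0.30, adjusted p = 0.00458). Ngfr, the nerve growth factor receptor gene, went from 0.281, 0.0392 and 0.0356 CPM in WT to 1.67, 1.40 and 3.22 in d56het, a log2 fold change of 4.10 (SE 1.10, adjusted p = 0.0355). Relt was also higher in rescued d32 cDC1 than in WT MSCV cells (log2 fold change 0.95), where 2.07% of all genes were called. It was higher in cultured cDC2 than in the 1 cultured cDC1 library. Ngfr and Relt were higher in marrow pre-cDC1 than in MDP, where 8.24% of all genes were called. Cd27, Ngfr and Relt were all lower in cultured than in marrow pre-cDC1, where 21.9% were. Unlike those of the members, calls of genes in these lists, here and in other comparisons, were not followed through fits without 1 library.

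In the step from CDP to pre-cDC1, 10 of the 30 signalling genes were called, 6 higher and 4 lower, where 23.3% of all genes were. Those with the smallest adjusted p were Casp8 (-1.27), the TRAF3 partner gene Traf3ip3 (-0.60), Map3k14, the NIK kinase of the alternative pathway (1.37), and Tnip2 (0.63; all log2 fold changes). Cd27, the receptor of CD70 and like Relt one of the 4 tested superfamily genes with other symbols, went from 25.2, 27.6 and 24.9 CPM in CDP to 3.09, 2.19 and 0.0356 in pre-cDC1, a log2 fold change of -3.87 (SE 0.89, adjusted p = 0.00660). From MDP to CDP 0 of the 30 signalling genes were called by edgeR, where 1.04% of all genes were called. At an unadjusted p under 0.05 there were 2, against 1560 of all 13292 genes tested. Between cultured cDC1 and pre-cDC1 the call was 2 higher and 1 lower, against 2.26% of all genes, and between cDC2 and cDC1 1 higher, against 3.72%. In marrow 1 rose and 1 fell from MDP to pre-cDC1, against 8.24%. In culture against marrow, 2 were higher and 1 lower in MDP, against 8.28%, and 2 higher and 5 lower in pre-cDC1, against 21.9%. For the difference between the steps 4 were called, all negative, where 11.4% of all genes were called, namely Traf3ip3 (-0.78), the necroptosis effector gene Mlkl (-1.82), Casp8 (-0.84) and Tnfaip3 (-1.80).

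In transduced cDC1, Irf8 of d56 cells rescued with IRF8 did not differ from WT MSCV cells by the test (adjusted p = 0.985), while that of rescued d32 cells stood at 37.4% of it, and counts cannot separate the retroviral from the endogenous transcript. Both comparisons share the WT MSCV libraries. In rescued d32 cells 2 of 36 members were called, both higher, where 2.07% of all genes were called (1.13% up and 0.947% down), namely Tnfrsf13c and Ltb. The count was 2 without WT MSCV replicate 2 and 1 without any other library. Tnfrsf13c stood at 32.7, 37.0 and 34.9 CPM in WT MSCV, 61.9, 73.2 and 73.7 in d32 and 55.4, 45.7 and 56.7 in d56, and neither rescued group overlapped WT MSCV. The log2 fold change was 0.99 (SE 0.12, adjusted p = 0.00969) in d32 and 0.59 (SE 0.12, adjusted p = 0.0544) in d56. The d32 call held whichever library was left out but not in 1 fit of all libraries (adjusted p = 0.204). Ltb stood at 2.04, 4.09 and 2.47 CPM in WT MSCV, 9.41, 8.70 and 12.1 in d32 and 5.77, 6.86 and 8.42 in d56, again without overlap. Its log2 fold change was 1.80 (SE 0.31, adjusted p = 0.0307) in d32, held only without WT MSCV replicate 2 (adjusted p up to 0.0848), and 1.28 (SE 0.31, adjusted p = 0.0881) in d56.

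Rescued d56 cells had 3 of 36 members called, 1 higher and 2 lower, where 1.65% of all genes were called (1.22% up and 0.43% down). With WT MSCV replicate 1 or 3 left out 1 was called, and with any other library left out 0. Traf1 stood at 24.9, 14.0 and 17.5 CPM in WT MSCV and 53.4, 63.0 and 55.0 in d56, with a log2 fold change of 1.59 (SE 0.27, adjusted p = 0.0290). In rescued d32 cells it was 38.2, 43.2 and 22.7 CPM, overlapping WT MSCV. Tnfrsf21 encodes death receptor 6 and went from 16.9, 17.9 and 17.2 CPM to 10.7, 8.42 and 11.4, a log2 fold change of -0.77 (SE 0.15, adjusted p = 0.0437). Tnfrsf13b went from 40.1, 36.8 and 36.8 CPM to 25.0, 29.5 and 24.7, a log2 fold change of -0.53 (SE 0.10, adjusted p = 0.0455), and rescued d32 cells held 45.4, 46.8 and 41.6. None of these 3 overlapped between the groups. The Tnfrsf21 and Tnfrsf13b calls were lost whichever library was left out (adjusted p up to 0.124 and 0.159), and that of Traf1 held only without WT MSCV replicate 1 (up to 0.0882). Tnfrsf9 had 0 counts in every WT MSCV library, 0, 2.50 and 9.73 CPM in d56 and 0, 0 and 4.01 in d32, with adjusted p of 0.307 and 0.339. Summed cDC1 markers were 3709.9 to 4075 CPM in WT MSCV, 3114 to 3502 in d32 and 4003 to 4363 in d56, and cDC2 markers 196 to 298, 1060.0 to 1240.4 and 459 to 531; their part was not tested. Of the 30 signalling genes 0 were called by edgeR in either comparison, where 1.65% and 2.07% of all genes were called. At an unadjusted p under 0.05 there were 3 in d56 and 7 in d32, against 1734 and 1957 of all 11620 genes tested.

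**Figure D4:**
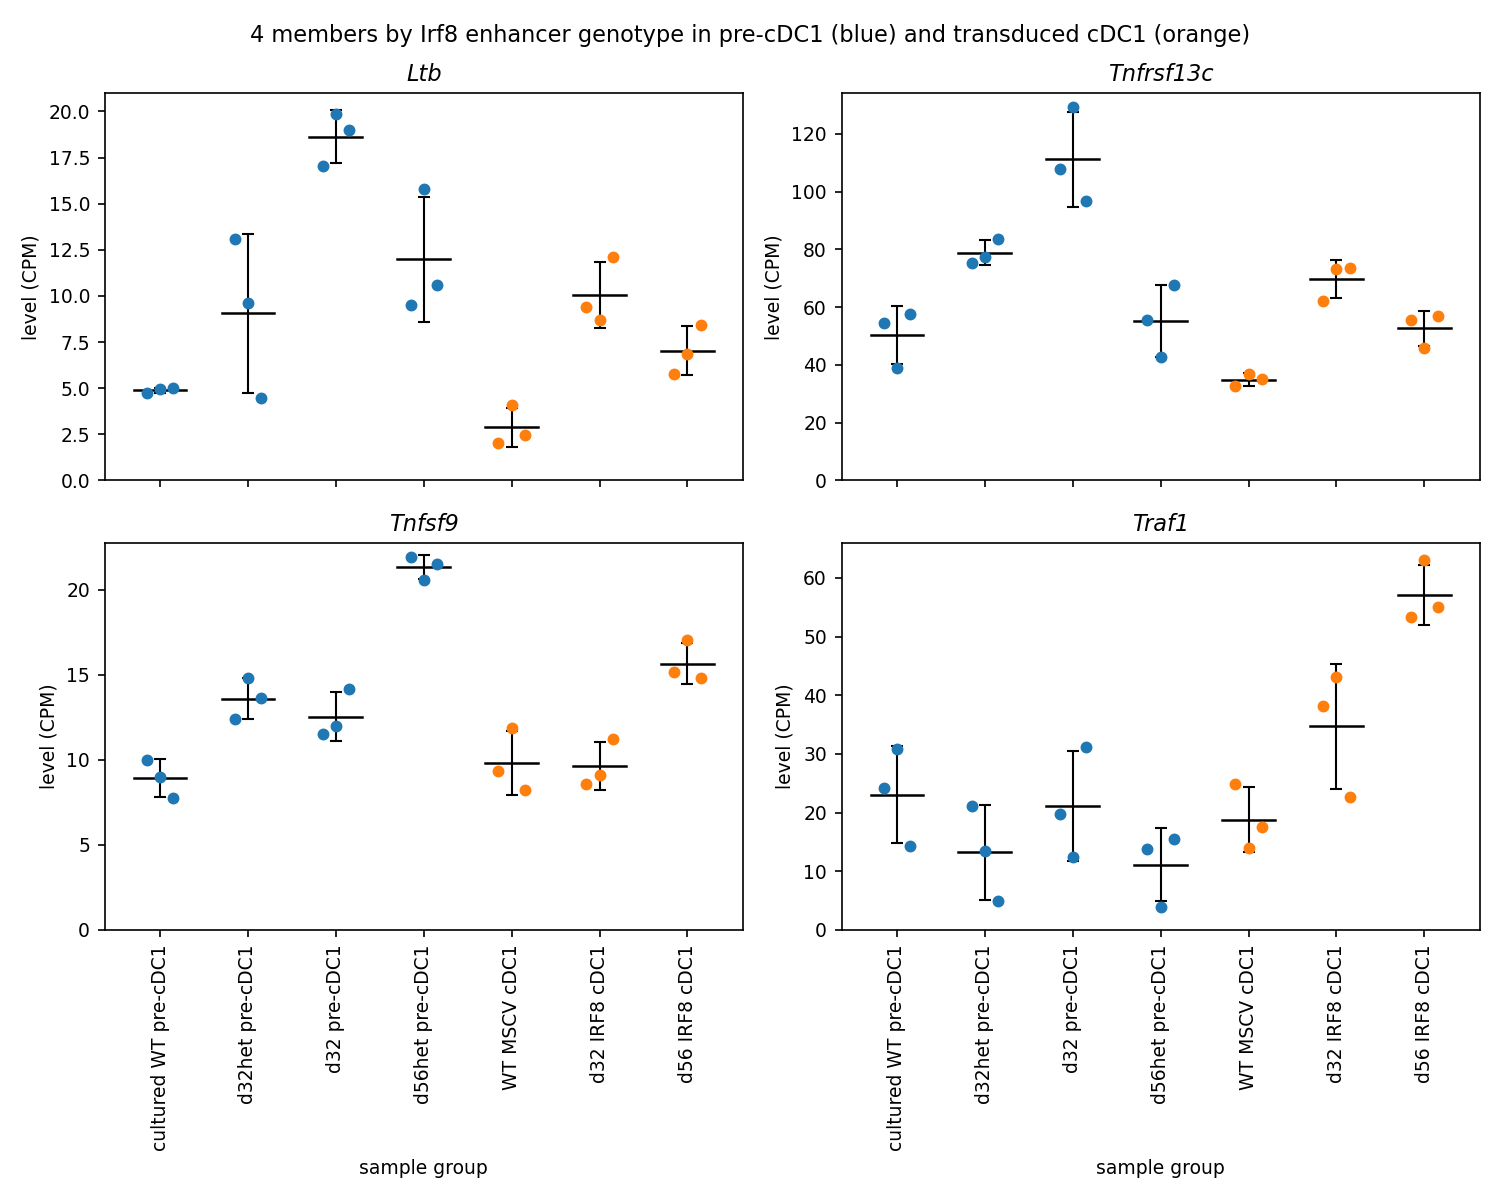
CPM of Ltb, Tnfrsf13c, Tnfsf9 and Traf1 in pre-cDC1 by Irf8 enhancer genotype (blue) and in transduced cDC1 (orange); each point is 1 library, the line is the group mean and the bars are the SD. Tnfrsf13c lies at 96.7 to 129 CPM in d32 pre-cDC1 against 38.9 to 57.6 CPM in WT, and at 61.9 to 73.7 CPM in rescued d32 cDC1 against 32.7 to 37.0 CPM in WT MSCV.

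The remaining members were called in no comparison. Among the ligands, Tnfsf8, the gene of CD30 ligand, ran from 0.211 CPM in the splenic cDC1 library to 17.1 ± 3.69 (SD, n = 3) in cultured cDC2. Tnfsf14, which encodes LIGHT, a second ligand of the lymphotoxin β receptor, was also highest in cultured cDC2 at 8.53 ± 0.971 CPM, against 0.720 ± 0.468 in cultured pre-cDC1. Tnf stood at 8.96 ± 1.17 CPM in cultured cDC2 and 1.90 ± 2.30 in cultured pre-cDC1. Tnfsf10, the gene of the death ligand TRAIL, had its highest group mean in the single primary CDP library (2.32 CPM). It stood at 2.32 ± 0.850 CPM in primary MDP and stayed lower in all cultured groups. Lta and Fasl, the genes of lymphotoxin α and Fas ligand, reached 1.93 and 2.65 CPM in the splenic cDC1 library and stayed under 1 CPM elsewhere.

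Among the receptors, Tnfrsf11a stood at 1.84 ± 0.378 CPM in cultured MDP, 3.90 ± 1.57 in CDP and 5.70 ± 0.843 in pre-cDC1, and the adjusted p from CDP to pre-cDC1 was 0.247. In primary cells it stood at 1.94, 0.109 and 0.253 CPM in MDP and 7.47, 9.23 and 5.61 in marrow pre-cDC1 (adjusted p = 0.333). Tnfrsf12a stood at 9.97, 8.77 and 11.04 CPM in WT and 15.3, 26.2 and 13.0 in d32 pre-cDC1 (adjusted p = 0.654). Tnfrsf14, which encodes HVEM, a receptor of LIGHT, kept group means between 0.356 and 2.87 CPM. Tnfrsf1b stood at 50.9 ± 5.53 CPM in cultured cDC2 against 24.1 CPM in the cDC1 library (adjusted p = 0.148). Of the adaptors, Traf5, a partner of TRAF2 at CD27 and the lymphotoxin β receptor, stood at 7.85, 5.32 and 3.55 CPM in primary MDP and 17.6, 11.6 and 17.5 in marrow pre-cDC1, without overlap and with an adjusted p of 0.0502. Traf4 kept group means between 4.03 and 9.07 CPM, and Traf7 between 121 and 233 CPM.

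Over the 17 group means, single libraries included, the members most like Traf1 by Pearson's r of log2(CPM + 1), over the 38 members that reach 1 CPM, were Tnfrsf18 (0.86), Tnfrsf11a (0.83) and Ltb (0.72). Those most like Tnfrsf13c were Tnfrsf12a (0.85) and Tnfsf8 (0.84), the genes of the TWEAK receptor Fn14 and of CD30 ligand, and those most like Tnfsf9 were Tnfrsf13b (0.81) and Tnfrsf1a (0.80). These values describe the groups, several of which share a culture system.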

How the data were processed

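RNA of 47 libraries was read with a SMART-Seq HT and Nextera XT protocol, per the labels' protocols. The authors deposited 1 table of expected counts per gene and library, unnormalized, per the file headers. Per the submitters' processing notes, RSEM 1.3.3, STAR 2.7.7a and Picard 2.25.0 are named beside mm10 and GRCm38, but neither their roles nor the annotation. Estimated counts of genes that overlap or resemble each other can be divided between them. Nothing in the sources used here gives the strand.

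Expected counts were rounded to whole numbers and tested with edgeR 4.0.16 (R 4.3.3, limma 3.58.1): TMM factors, its filter on low counts, the quasi-likelihood F test and Benjamini-Hochberg adjustment over all genes tested, with a threshold of 0.05. Related groups shared 1 fit: 12 pre-cDC1 libraries by genotype, 9 transduced cDC1, 17 cultured wild-type libraries, 11 primary libraries, and 12 of MDP and pre-cDC1 from both sources. The 17 cultured libraries include WT MSCV cDC1 beside the stages. The SE of a log2 fold change is its size over the square root of F. CPM values use TMM factors over all 47 libraries; floors of 3 counts cover counting error only, as the reads carry no molecular identifiers.

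Full values are given for members called with a group mean of at least 10 CPM, and lower or uncalled members were named after their values were seen. The members and lists were chosen with earlier results of these data known. Alternatives were DESeq2 1.42.0, its size factors in edgeR, library totals, no filter, the replicate number as a block, all libraries in 1 fit, and leaving out each library. The fit of all libraries used the 43 without conflicting labels. The edgeR procedure was run on simulated counts with known changes, drawn from edgeR's own fitted trend of the spread. They hold no spread particular to a gene or library, so they do not bear on single calls here. The B cell list was summed over 5 markers, and results that need 1 further gene are not reported here. No replicate pair was near-identical in counts.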

Additional observations from a re-analysis of the deposited data

Results flagged for a closer look

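The step from MDP to pre-cDC1 differed between culture and marrow for Tnfsf9, the 4-1BB ligand gene, by -1.48 on the log2 scale, tested by an interaction term. Tnfsf9 stood at 7.08 ± 0.337 CPM in cultured MDP and 8.93 ± 1.12 in cultured pre-cDC1, and at 5.26 ± 0.530 and 19.3 ± 0.690 in the primary cells (SD, n = 3 each). The adjusted p was 0.00451 in edgeR and at most 0.0166 in the 18 alternatives. Cultured pre-cDC1 held 175 to 194 CPM of summed monocyte and macrophage markers and marrow pre-cDC1 507 to 888, whose part was not tested.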

How the results depend on the processing

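Of the 34 calls of members, 14 held in every fit without 1 library, 10 held under every alternative and 0 changed sign. Ltb, Tnfrsf13b and Tnfrsf9 in d32 are among those that did not hold. The numbers of members called moved more, and the shares of all genes called moved too. Over all genes DESeq2 called 9.74% in d32, 11.1% in d32het, 7.87% in rescued d56 and 9.54% in rescued d32 cDC1. It called 4.10% from MDP to CDP, 17.2% from MDP to marrow pre-cDC1 and 8.27% between spleen and marrow. Between culture and marrow it called 15.7% in MDP, 29.4% in pre-cDC1 and 20.2% for the difference between the steps. The counts of members follow. DESeq2 called 7 in d32, 3 in d32het, 9 and 4 in rescued d56 and d32 cDC1, 4 from MDP to CDP, 5 between cDC2 and cDC1, 8 from MDP to marrow pre-cDC1, 3 between spleen and marrow, 4 and 8 between culture and marrow in MDP and pre-cDC1, and 2 for the difference between the steps. One fit of all libraries called 1, 1 and 2 in d32, d32het and d56het, 0 in both rescued groups, 0 between cDC2 and cDC1, 9 from MDP to marrow pre-cDC1, 3 between spleen and marrow, 2 between culture and marrow MDP, neither of them Tnfsfm13, the reported call, and 2 for the difference. Over all genes that fit called 3.08% in d32, 2.91% in d32het and 9.18% in d56het. It called 0.395% in rescued d56 and 0.451% in rescued d32 cells. From MDP to marrow pre-cDC1 it called 22.4% and between spleen and marrow 12.4%. Between culture and marrow MDP it called 6.30%, and for the difference 7.10%. Library totals gave 1 in d32het, where 4.29% of all genes were called. No filter gave 1 in rescued d56 cells and 0 from MDP to CDP, where 1.21% and 0.839% of all genes were called. With the replicate number as a block, 1 was called in d56het, 0 in rescued d56 and 1 in rescued d32 cells, 0 from MDP to CDP, 0 between spleen and marrow, and 2 between culture and marrow MDP. With the block, the shares of all genes called were, in that order, 10.8%, 1.02%, 0.904%, 0.737%, 0.494% and 5.99%. Same-numbered libraries did not deviate together in every pair (correlations from -0.07 to 0.11). In no comparison did every library correlate best with its own number. These correlations gave no sign of pairing by number, but with 3 libraries per group they cannot exclude a shared mouse, culture or batch. Leaving out 1 library gave 1 to 2 calls in d32, 0 to 1 in d32het, 1 to 3 in d56het, 0 to 1 in rescued d56, 1 to 2 in rescued d32, 0 to 1 from MDP to CDP, 5 to 7 from CDP to pre-cDC1, 1 to 2 between cDC2 and cDC1, 2 to 3 from MDP to marrow pre-cDC1, 0 to 5 between spleen and marrow, 1 to 2 between culture and marrow MDP, 2 to 7 between culture and marrow pre-cDC1 and 1 to 2 for the difference. The cause of these changes was not tested. With 1 cultured cDC1 library, its spread is taken from the other groups, and members under 1 CPM are near the limit of depth.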
